A study of Mus musculus with 15 samples.

Results

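This account compares 3 libraries labelled RUNX1-ETO_FIRST with 3 libraries labelled EMPTY. They are 6 of the 15 libraries of the series and were picked by their labels. Messenger RNA was sequenced from mouse cells of a line that the labels call HoxB, with Blood as the cell type. RUNX1-ETO_FIRST cells had received both leukaemia alleles, the fusion RUNX1-ETO first and then the receptor CSF3R with the change T618I. EMPTY cells served as controls and had received the empty vectors. The other 3 groups of 3 libraries carried the fusion alone (RUNX1-ETO_ONLY), the receptor alone (CSF3R_ONLY), or both alleles in the other order (CSF3R_FIRST). The labels give no further treatment and no time point. They do not say whether the 3 replicates of a group came from separate cultures, so p-values measure the spread between these libraries, which may be technical. The study's title states its question, which was what the order of the alleles does. The comparison here gives the state of the fusion-first double cells against control cells.

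RUNX1 is a transcription factor of blood stem cells and of granulocyte, platelet and lymphocyte precursors. In the fusion, its DNA-binding part is joined to ETO, the product of RUNX1T1, a protein that recruits repressors of transcription. The granulocyte colony-stimulating factor receptor, encoded by CSF3R, drives the growth of neutrophil precursors through the kinase JAK2 and the factors STAT3 and STAT5, and the T618I form signals without ligand. Immature granulocytes fill their primary granules with myeloperoxidase and elastase under the control of CEBP factors and PU.1. Mast cells and basophils, which stem from neighbouring progenitors, instead use GATA2 and fill their granules with chymases, tryptases, carboxypeptidase A3, heparin and histamine.

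Total counts were 17007437 to 17391045 per EMPTY library and 17942960 to 18138097 per RUNX1-ETO_FIRST library. Levels are given as CPM, counts put on a common scale for library size and composition with edgeR. All 10 leukocyte markers examined were present in both groups, with mean levels of 148 to 2107 CPM in RUNX1-ETO_FIRST. Of 10 fibroblast markers 5 had no counts in the 6 libraries, and the summed level was 23.39 to 32.94 CPM in EMPTY and 82.74 to 92.54 CPM in RUNX1-ETO_FIRST. Of 10 endothelial and epithelial markers 5 had no counts, and the sum, most of it the leukocyte adhesion molecule Pecam1, was 271.7 to 293.1 and 713.6 to 731.9 CPM. EMPTY replicate 3 stood apart from the other EMPTY libraries. Its counts differed from theirs with a chi-square of 63.9 and 68.7 per degree of freedom, against 3.95 between replicates 1 and 2. It was low in long transcripts, as was RUNX1-ETO_FIRST replicate 1, with Spearman correlations of deviation and transcript length of -0.589 and -0.452. RUNX1-ETO_ONLY replicate 3 and CSF3R_FIRST replicate 3 were low in them too. A count that moves by over 1.5 times when 1 library is left out is given with and without it.

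The genes of the alleles came first. Runx1t1, the mouse gene for ETO, had no counts in EMPTY and lay at 381, 539 and 564 CPM in RUNX1-ETO_FIRST replicates 1 to 3, at least 2898-fold above a floor of 3 counts per library. It also had no counts in CSF3R_ONLY and averaged 448 ± 61.3 CPM (SD, n = 3) in RUNX1-ETO_ONLY. Runx1 lay at 92.9, 96.4 and 81.5 CPM in EMPTY and at 537, 627 and 670 CPM in RUNX1-ETO_FIRST. The log2 fold change of Runx1 was 2.76 ± 0.10 (SE), with an adjusted p of 3.76e-12 by edgeR's quasi-likelihood test. Csf3r lay at 422, 465 and 373 CPM in EMPTY and at 416, 401 and 441 CPM in RUNX1-ETO_FIRST, so the groups overlapped, with an adjusted p of 0.994. The receptor allele was thus not visible in this gene's counts. The species of the introduced sequences is not given in the labels used here, so counts of Csf3r do not check for it.

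Of 13123 genes tested, 5768 (44%) passed an adjusted p of 0.05 in RUNX1-ETO_FIRST against EMPTY. 3114 genes (23.7%) rose and 2654 (20.2%) fell. Scaled by library size alone, 2877 rose and 3085 fell. Without the 4 libraries low in long transcripts, 3554 rose and 3534 fell, so the excess of rises in number rests on these choices. The rises were the larger changes, with a median of 2.03-fold against 1.53-fold for the falls. At least 4-fold, 900 genes (6.86%) rose and 297 (2.26%) fell. In 6307 genes (48.1%) the lowest library of one group lay above the highest of the other. Among the genes that rose, 153 had no counts in EMPTY, while 13 of those that fell had none in RUNX1-ETO_FIRST. Bulk RNA cannot tell a change in the share of cells of a type from a change in RNA per cell, here and in all that follows.

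**Figure D1:**
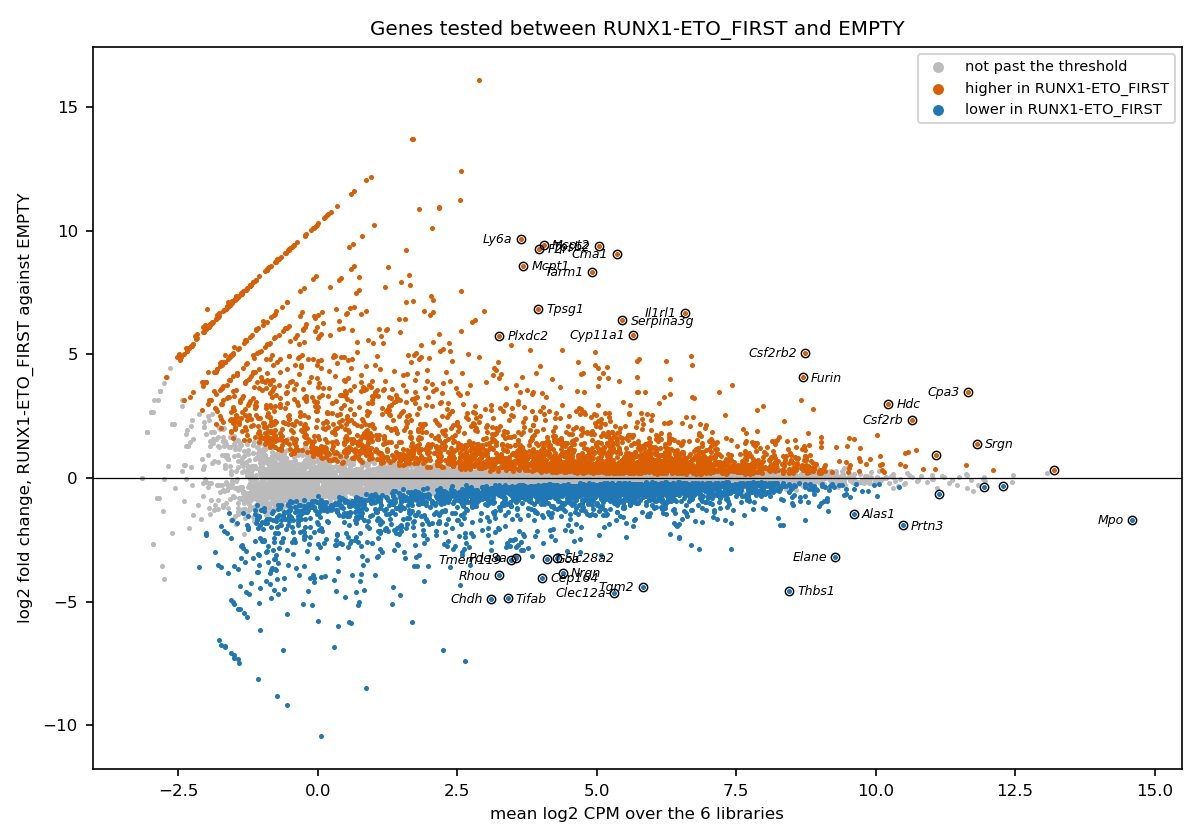
Log2 fold change of RUNX1-ETO_FIRST against EMPTY (vertical axis) against the mean log2 CPM over the 6 libraries (horizontal axis), 1 point per tested gene, with genes past the threshold coloured. The 3114 risen genes reach further from 0 than the 2654 fallen genes, with Ly6a, Mcpt2 and Tpsb2 high above 0 and Thbs1 and Clec12a far below it. Circles mark the named genes, and the straight lines of points at the left are genes with no or few counts in one group, whose plotted values depend on the prior count.

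Genes of mast cell granules were among the largest rises. Cma1, a chymase, lay at 1.27, 1.33 and 2.76 CPM in EMPTY and at 1065, 900 and 872 CPM in RUNX1-ETO_FIRST. Its log2 fold change was 9.06 ± 0.22 (SE), with an adjusted p of 3.32e-14 by edgeR. Tpsb2, a tryptase, lay at 0.936, 1 and 1.86 CPM and at 979, 723 and 790 CPM, a log2 fold change of 9.36 ± 0.20. The groups were far apart for both genes, with every RUNX1-ETO_FIRST library above every EMPTY library. Cpa3, the carboxypeptidase stored with these proteases, lay at 840, 805 and 1312 CPM in EMPTY and at 12538, 9881 and 10535 CPM in RUNX1-ETO_FIRST. Its log2 fold change was 3.48 ± 0.18, with an adjusted p of 1.85e-10 by edgeR. Cpa3 was therefore already transcribed in control cells, where Cma1 and Tpsb2 were close to the floor. Together the protease genes took 0.0934% to 0.141% of all counts in EMPTY and 1.34% to 1.66% in RUNX1-ETO_FIRST.

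All 10 tested protease genes of 11 listed rose, with a median log2 fold change of 8.81, beside -0.02 over all tested genes. A gene near 0 in one group passes the expression filter only where it is high, so such counts describe the lists and are no test of them. Counts of list members against EMPTY, here and below, stand beside 23.7% risen and 20.2% fallen over all tested genes. Mcpt4 had 2 counts in all of EMPTY and lay at 283, 216 and 239 CPM in RUNX1-ETO_FIRST, a ratio of 6494 with a 95% counting interval of 1797 to 53626. For Tpsab1 the ratio was 2211 (612 to 18265). Mcpt1 and Mcpt2, chymases of the same cluster, had log2 fold changes of 8.56 and 9.43, and without EMPTY replicate 3, which held most of their control counts, of 11.42 and 11.01. Mcpt8, a marker of basophils, lay at 79.1, 83.7 and 119 CPM in EMPTY and at 824, 646 and 639 CPM, a log2 fold change of 2.90 ± 0.16. Gzmb, granzyme B, rose from at most 0.959 CPM to between 14 and 15.3 CPM. Floors and intervals cover counting error only. The chymases and the tryptases are close relatives in sequence, and the counting of reads shared between them is not stated, so the split within each family is less certain than its sum.

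The chymases, Mcpt8 and the tryptases lie in 2 clusters in the mm10 build, and Cpa3 lies apart on chromosome 3. On chromosome 14, Cma1 spans chr14:55941451-55944675 on the reverse strand. Mcpt1 (chr14:56017971-56020384), Mcpt2 (chr14:56042041-56044642), Mcpt4 (chr14:56059629-56062313) and Mcpt8 (chr14:56082166-56085273) lie further along it. Beyond Mcpt8 lies Ctsg, cathepsin G of the neutrophil primary granule, at chr14:56099881-56102574. Ctsg lay at 2804, 2798 and 3734 CPM in EMPTY and at 2899, 2397 and 2405 CPM in RUNX1-ETO_FIRST, overlapping, with an adjusted p of 0.0826. It passed as lower without RUNX1-ETO_FIRST replicate 1 or EMPTY replicate 2, with adjusted p values of 0.037 and 0.0482 by edgeR. Ctsg passed as lower under 6 of 15 alternative analyses. Some of these kept every library, such as limma-voom with an adjusted p of 0.0108. The cluster thus held both genes that rose from near 0 and a gene whose difference did not pass the test. The tryptases Tpsab1 (chr17:25343245-25345562), Tpsb2 (chr17:25366305-25369098) and Tpsg1 (chr17:25369273-25374442) lie side by side on chromosome 17. Tpsg1, a transmembrane tryptase, rose from 1.17 to 1.86 CPM to 150 to 176 CPM.

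The promoters of 4 mast cell genes that rose and of 2 primary granule genes that fell are shown because the introduced fusion binds DNA through RUNX1 and because Gata1 and Gata2 rose. Each runs from 250 bases before to 50 bases after a transcription start in RefSeq on GRCm38.p6, 5′ to 3′ on the gene's strand. Capitals mark TGTGGT or ACCACA, the core bound by RUNX factors on either strand, and AGATAA or TTATCT, a core bound by GATA factors. The reverse-strand windows are Cma1 at chr14:55944626-55944925, Cpa3 at chr3:20242132-20242431 and Hdc at chr2:126618629-126618928. On the forward strand, Il1rl1 has 2 starts, at chr1:40429320-40429619 and chr1:40439379-40439678, and Elane lies at chr10:79886062-79886361 and Mpo at chr11:87793534-87793833.
Cma1: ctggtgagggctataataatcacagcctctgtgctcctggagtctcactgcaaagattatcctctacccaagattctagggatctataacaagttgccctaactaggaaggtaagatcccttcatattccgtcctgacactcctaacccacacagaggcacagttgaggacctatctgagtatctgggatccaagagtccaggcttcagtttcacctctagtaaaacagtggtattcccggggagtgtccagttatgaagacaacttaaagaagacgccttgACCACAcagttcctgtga
Cpa3: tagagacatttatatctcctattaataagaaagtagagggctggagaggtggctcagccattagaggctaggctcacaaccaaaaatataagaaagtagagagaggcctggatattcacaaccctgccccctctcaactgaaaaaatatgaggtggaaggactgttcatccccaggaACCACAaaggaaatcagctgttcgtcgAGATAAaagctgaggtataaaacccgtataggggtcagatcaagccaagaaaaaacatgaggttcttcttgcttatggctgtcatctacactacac
Hdc: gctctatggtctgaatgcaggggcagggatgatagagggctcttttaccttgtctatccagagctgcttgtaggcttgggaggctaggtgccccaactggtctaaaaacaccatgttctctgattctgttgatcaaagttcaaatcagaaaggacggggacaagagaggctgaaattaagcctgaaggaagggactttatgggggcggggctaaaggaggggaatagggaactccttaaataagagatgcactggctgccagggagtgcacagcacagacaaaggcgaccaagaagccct
Il1rl1 first start: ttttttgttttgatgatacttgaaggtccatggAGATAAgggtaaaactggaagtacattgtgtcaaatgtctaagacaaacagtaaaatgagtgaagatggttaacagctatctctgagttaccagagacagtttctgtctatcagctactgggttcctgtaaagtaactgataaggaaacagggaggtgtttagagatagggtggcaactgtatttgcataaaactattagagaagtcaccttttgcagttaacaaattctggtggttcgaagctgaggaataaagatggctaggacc
Il1rl1 second start: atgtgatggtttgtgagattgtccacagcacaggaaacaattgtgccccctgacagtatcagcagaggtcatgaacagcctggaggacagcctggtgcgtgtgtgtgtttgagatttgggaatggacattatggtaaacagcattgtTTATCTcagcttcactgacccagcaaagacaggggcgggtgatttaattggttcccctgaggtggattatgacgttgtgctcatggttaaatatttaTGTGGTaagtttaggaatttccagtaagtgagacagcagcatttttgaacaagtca
Elane: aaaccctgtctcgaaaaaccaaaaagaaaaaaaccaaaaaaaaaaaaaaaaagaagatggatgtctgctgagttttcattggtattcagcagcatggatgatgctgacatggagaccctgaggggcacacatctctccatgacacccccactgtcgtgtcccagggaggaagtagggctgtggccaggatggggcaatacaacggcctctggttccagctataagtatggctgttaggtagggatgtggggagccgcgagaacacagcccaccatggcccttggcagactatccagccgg
Mpo: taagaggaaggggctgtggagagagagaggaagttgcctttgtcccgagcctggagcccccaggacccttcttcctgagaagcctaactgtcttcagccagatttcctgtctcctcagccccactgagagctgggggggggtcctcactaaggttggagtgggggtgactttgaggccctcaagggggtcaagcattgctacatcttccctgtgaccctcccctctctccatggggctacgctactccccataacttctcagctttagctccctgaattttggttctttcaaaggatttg
The Cma1 window held 1 RUNX core, those of Cpa3 and the second start of Il1rl1 held 1 of each kind, and the first start of Il1rl1 held 1 GATA core. Those of Hdc, which rose, and of Elane and Mpo, which fell, held neither. Over 12468 promoters of tested genes, 13% held the RUNX core and 6.78% the GATA core. Of 866 promoters of genes that rose at least 4-fold the shares were 16.4% and 11.4%, and of 265 promoters of genes that fell at least 4-fold they were 20.4% and 8.68%. A match describes the letters of a window and not a bound site.

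Genes for making and storing mast cell mediators moved with the proteases. Hdc, the enzyme that makes histamine, lay at 429, 428 and 407 CPM in EMPTY and at 3458, 3341 and 3317 CPM in RUNX1-ETO_FIRST. This was an 8-fold rise, with an adjusted p of 4.13e-14 by edgeR. Of the 15 mediator genes, all tested, 13 rose, and Hpgds and Pla2g4a did not pass the test. Without EMPTY replicate 1, Hpgds passed as higher with an adjusted p of 0.0312 by edgeR. Tph1, which makes the precursor of serotonin, had a ratio of 2201 (753 to 10674) and lay at 123 to 127 CPM in RUNX1-ETO_FIRST. Slc18a2, which loads monoamines into granules, rose from 7.5 to 8.81 CPM to 122 to 147 CPM. Alox5, the first enzyme of leukotriene synthesis, and Ltc4s, which makes leukotriene C4, had log2 fold changes of 2.62 and 3.81. Ndst2, which sulfates heparin, rose from 33 to 54.5 CPM to 236 to 262 CPM. Srgn, serglycin, the core protein that carries heparin in the granule, lay at 2037, 1793 and 3003 CPM and at 6814, 5217 and 5689 CPM. In each of these genes every RUNX1-ETO_FIRST library lay above every EMPTY library.

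Receptors of mast cells divided into 6 that rose, 2 that fell and 2 that did not pass the test, of 10 tested and 11 listed. Fcer1a, the IgE-binding alpha chain of the high-affinity receptor, had no counts in EMPTY and lay at 34.8, 33.6 and 30.1 CPM, at least 193-fold above the floor. Ms4a2, its beta chain, lay at 7.82, 6.94 and 8.1 CPM in EMPTY and at 172, 173 and 170 CPM. Fcer1g, the signalling chain shared with other receptors, lay at 255, 261 and 479 CPM and at 440, 337 and 366 CPM, overlapping, with an adjusted p of 0.432. Without EMPTY replicate 3, which held its highest value, Fcer1g passed as higher with an adjusted p of 0.000762 by edgeR. So all 3 genes of the receptor were present in the double cells, while control cells lacked counts for the IgE-binding chain. Il1rl1, the receptor for interleukin 33, lay at 9.14, 12.6 and 7.02 CPM and at 844, 1055 and 1028 CPM, a log2 fold change of 6.67 ± 0.20 with an adjusted p of 3.84e-13 by edgeR. Kit, the receptor for stem cell factor on which tissue mast cells depend, went the other way. It lay at 333, 348 and 312 CPM in EMPTY and at 115, 117 and 126 CPM in RUNX1-ETO_FIRST, a fall of 1.48 ± 0.08 on the log2 scale with an adjusted p of 4.33e-10. Siglecf, a lectin of eosinophils, fell from 100 to 103 CPM to 34.4 to 39.4 CPM. With the 3 genes at no counts in one group held at their bound, the median log2 fold change of the receptors was 1.17 rather than 4.48.

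Of 4 tested eosinophil genes of 8 listed, Il5ra, the receptor chain for interleukin 5, rose and 3 granule genes fell. Prg2, major basic protein, fell from 19.3 to 31.7 CPM to 2.59 to 3.42 CPM. Epx, eosinophil peroxidase, fell from 2.76 to 4.24 CPM to 0.395 to 0.729 CPM. Prg2 averaged 98.5 CPM in CSF3R_ONLY.

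Gata1 and Gata2 rose with the granule genes. Gata2, the factor of mast cell and stem cell identity, lay at 135, 146 and 126 CPM in EMPTY and at 1183, 1192 and 1268 CPM in RUNX1-ETO_FIRST. The log2 fold change was 3.16 ± 0.09 (SE), with an adjusted p of 1.62e-13 by edgeR. Gata1 lay at 2.7, 2.94 and 4.68 CPM and at 70.7, 63.9 and 61.6 CPM, a log2 fold change of 4.25. Of 9 tested genes for GATA factors and their partners of 10 listed, 6 rose, among them Tal1, Zfpm1 and Mitf, the factor of mast cells and pigment cells. Lmo2, an adaptor of GATA complexes, fell from 155 to 210 CPM to 86.2 to 94.5 CPM. Gata3 and Lyl1 did not pass the test.

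**Figure D2:**
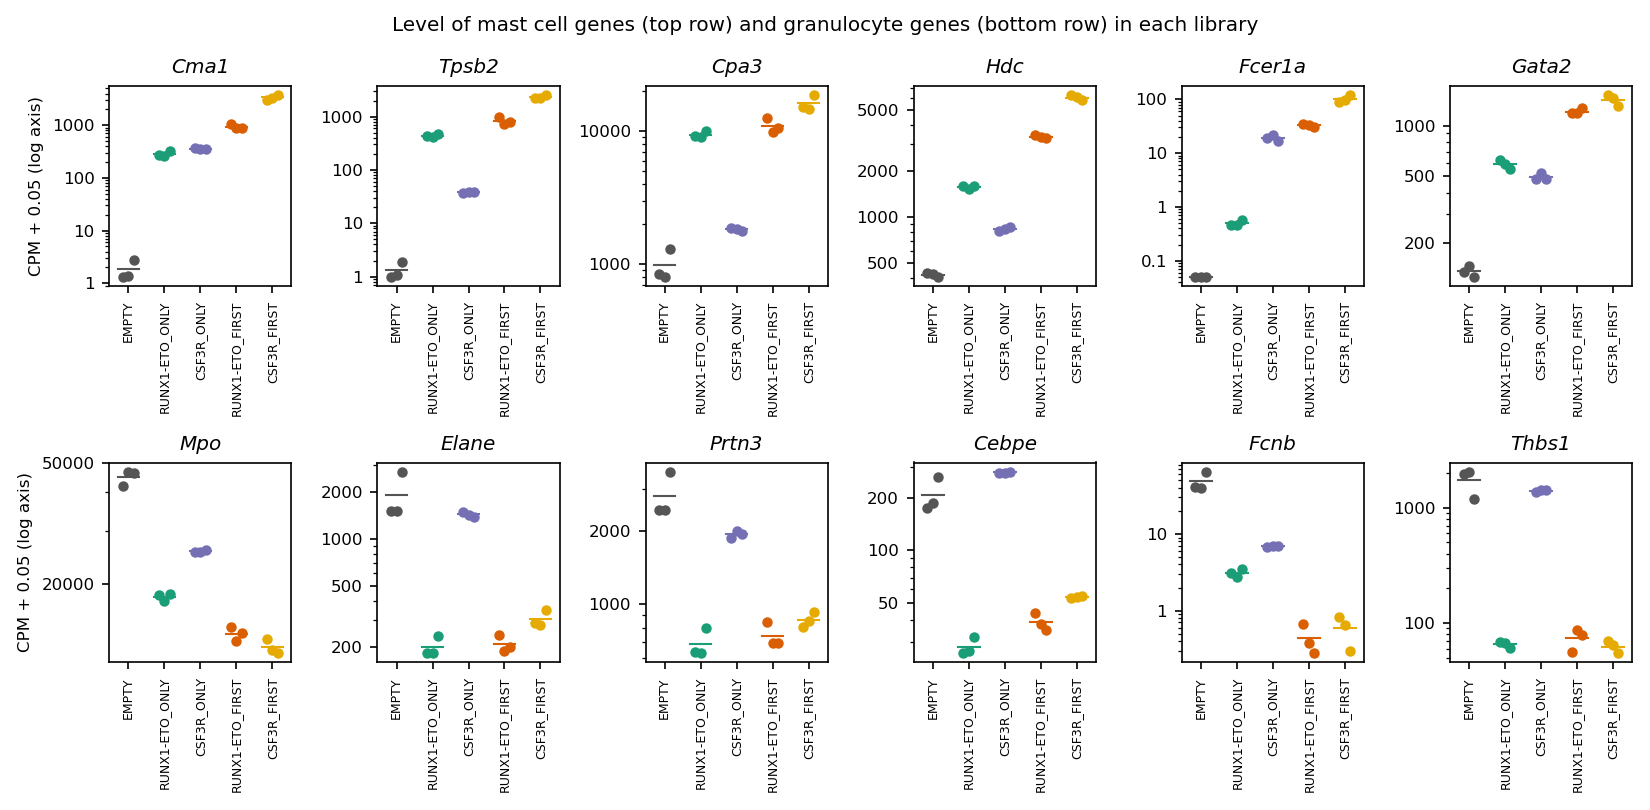
CPM of single genes in each library of the 5 groups on a log axis with an offset of 0.05 CPM so that 0 can be drawn, 1 point per library. The 6 genes of the top row lie higher in RUNX1-ETO_FIRST than in EMPTY, such as Cma1 at 872 to 1065 against at most 2.76 CPM, and the 6 of the bottom row lie lower. Lines mark group means.

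Most primary granule genes of granulocytes fell in the double cells. Mpo, myeloperoxidase, lay at 41973, 46797 and 46459 CPM in EMPTY and at 14524, 13054 and 13837 CPM in RUNX1-ETO_FIRST. Its fall was 1.71 ± 0.09 (SE) on the log2 scale, with an adjusted p of 3.47e-10 by edgeR. Elane, neutrophil elastase, lay at 1510, 1517 and 2729 CPM and at 239, 188 and 201 CPM, a log2 fold change of -3.19 ± 0.21. Both genes stayed far above the floor, and the groups did not overlap in either. Prtn3, proteinase 3, fell from 2446 to 3523 CPM to 690 to 849 CPM, and Prss57 fell from 240 to 279 CPM to 74.3 to 86.4 CPM. Of 12 genes on the primary granule list, all tested, 8 fell and 2 rose, with a median log2 fold change of -1.18. The list also holds some genes whose products are not granule proteins, and some of these are among the falls. The 2 that rose were Serpinb1a, which encodes an inhibitor of elastase and cathepsin G, and Cst7, a cathepsin inhibitor. Serpinb1a lay at 435, 422 and 524 CPM in EMPTY and at 1149, 1122 and 1073 CPM. The genes of this list took 5.94% to 6.45% of all counts in EMPTY and 2.49% to 2.73% in RUNX1-ETO_FIRST. Both shares include an abundant chaperone of the endoplasmic reticulum. It had 94016 to 97306 counts per EMPTY library and 102896 to 110171 per RUNX1-ETO_FIRST library.

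Genes of later neutrophil granules and of mature neutrophils did not move one way. Of 28, all tested, 10 rose, 11 fell and 7 did not pass the test. Fcnb, ficolin B of granulocyte precursors, lay at 40.9, 39.8 and 65.3 CPM in EMPTY and at 0.617, 0.33 and 0.226 CPM. Ngp, neutrophilic granule protein, fell from 270 to 379 CPM to 36.6 to 51.5 CPM, and Camp, cathelicidin, fell from 1.33 to 1.43 CPM to at most 0.33 CPM. Cxcr2, the receptor that guides neutrophils to chemokines, lay at 21.4, 20.7 and 17.1 CPM in EMPTY and at 311, 316 and 332 CPM, a log2 fold change of 4.02. Mmp8, collagenase of the specific granule, rose from 2.53 to 3.3 CPM to 22.7 to 24.1 CPM. Fpr1, Fpr2 and Retnlg, genes of mature neutrophils, passed the test as risen but lay at most at 2.3 CPM in any of the 6 libraries. Lcn2 and S100a9, the abundant members that did not pass, had adjusted p values of 0.0519 and 0.925 by edgeR. Without EMPTY replicate 3, Lcn2 passed as higher, by 0.77 on the log2 scale with an adjusted p of 4.18e-06. It passed as higher under 7 of 15 alternative analyses. Some of these kept every library, such as DESeq2 with an adjusted p of 0.0316.

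Transcription factors of the granulocyte line fell more often than they rose. Cebpe, the factor of secondary granules, lay at 175, 188 and 263 CPM in EMPTY and at 43.6, 37.9 and 35 CPM, a fall of 2.42 ± 0.14 (SE) on the log2 scale. Cebpa, which starts the granulocyte programme, lay at 735, 766 and 732 CPM and at 449, 403 and 414 CPM, with an adjusted p of 1.2e-07 by edgeR. Spi1, the gene for PU.1, lay at 470, 458 and 757 CPM and at 324, 261 and 292 CPM. Gfi1, a repressor needed for neutrophils, fell from 180 to 200 CPM to 113 to 118 CPM. Of 13 tested granulocyte and monocyte factors of 15 listed, 7 fell and 4 rose. Gfi1b, Klf2 and Irf8 were among those that rose. Gfi1b, the relative of Gfi1 used by erythroid, platelet and mast cell precursors, lay at 1.38, 1.5 and 1.68 CPM in EMPTY and at 19.7, 18.9 and 18.6 CPM. Gfi1 and Gfi1b therefore went in opposite directions.

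Of 6 genes for the NADPH oxidase, which makes superoxide in phagocytes, 4 fell. Cybb, its catalytic subunit, fell from 4.5 to 7.88 CPM to 1.18 to 1.79 CPM, and Ncf1, a cytosolic subunit, fell from 424 to 458 CPM to 236 to 241 CPM. With the 2 groups fitted alone 2 of the 6 passed. Of 16 tested monocyte and macrophage genes of 19 listed, 7 rose and 6 fell, and their summed level was 1220 to 1386 CPM in EMPTY and 741.4 to 752.5 CPM in RUNX1-ETO_FIRST. Adgre1, the macrophage antigen F4/80, lay at 16.5, 16 and 15.4 CPM and at 180, 172 and 177 CPM. Ccr2, the receptor that brings monocytes out of the marrow, lay at 188, 177 and 145 CPM and at 38.8, 50.2 and 45.5 CPM. Among the named falls outside these lists were Thbs1, thrombospondin, from 1190 to 2057 CPM to 56.1 to 86.2 CPM, and Tgm2, a transglutaminase, from 242 to 272 CPM to 11.4 to 13.2 CPM. Clec12a, an inhibitory lectin of granulocytes and monocytes, fell from 183 to 217 CPM to 6.48 to 9.54 CPM. Alas1, the first enzyme of haem synthesis in most tissues, fell from 1224 to 1369 CPM to 466 to 482 CPM.

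Cytokine receptor genes moved both ways, with more rises than falls, and the receptor chains for interleukin 3 were among the rises. Csf2rb2, the beta chain specific to the interleukin 3 receptor in mice, lay at 84.4, 80.4 and 58.6 CPM in EMPTY and at 2240, 2515 and 2704 CPM. Its log2 fold change was 5.06 ± 0.15 (SE), with an adjusted p of 2.39e-13 by edgeR. Csf2rb, the beta chain shared by the receptors for interleukin 3, interleukin 5 and GM-CSF, lay at 813, 811 and 538 CPM and at 3382, 3739 and 3781 CPM. The chains are close copies in sequence, so reads may be shared between them. Il3ra, the alpha chain for interleukin 3, rose from 63.5 to 74.8 CPM to 112 to 130 CPM, whereas Csf2ra, the alpha chain for GM-CSF, fell from 134 to 241 CPM to 94.9 to 107 CPM. Il7r, the receptor for interleukin 7, rose from at most 0.12 CPM to 46.3 to 50.8 CPM, and Il2ra rose from at most 0.167 CPM to 14.5 to 18.6 CPM. Of 25 cytokine receptor genes, all tested, 15 rose, 7 fell, Kit and Csf2ra among them, and 3, among them Csf3r, did not pass the test.

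Genes that report on STAT3 and STAT5 rose in most cases. Cish, a feedback inhibitor induced by STAT5, lay at 8.87, 9.17 and 9.23 CPM in EMPTY and at 141, 148 and 156 CPM in RUNX1-ETO_FIRST. Its log2 fold change was 4.03 ± 0.08 (SE), with an adjusted p of 7.13e-15 by edgeR. Socs1 and Socs3, inhibitors of JAK kinases, rose from 0.5 to 0.9 CPM to 29.3 to 35.5 CPM and from 15.8 to 20.1 CPM to 195 to 196 CPM. Pim2, a survival kinase, rose from 32.6 to 36.5 CPM to 307 to 350 CPM. Of 23 factors and response genes, all tested, 19 rose and 4 fell, with a median log2 fold change of 1.07. The 4 that fell were the cyclins Ccnd1 and Ccnd2, Myc and Spry1. Myc lost its call with the 2 groups fitted alone, with an adjusted p of 0.052 by edgeR. Stat5a, Stat3 and Jak2 themselves rose by 1.18, 0.79 and 1.05 on the log2 scale.

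Of 23 genes of the ERK pathway, all tested, 18 rose and 4 fell. Egr1, an immediate early factor, lay at 14.3, 17.1 and 12.5 CPM in EMPTY and at 350, 401 and 417 CPM. Egr3 and Fosb, of the same kind, had log2 fold changes of 6.04 and 3.88, the first of 7.01 without EMPTY replicate 3. Of genes that restrain the pathway, Dusp1, Dusp4 and Dusp5 rose by 1.29, 1.38 and 1.97 on the log2 scale, and Dusp6, Spry1 and Spry4 fell by 0.89, 1.76 and 1.42. Fosl1, a partner of JUN factors, was the other fall, by 0.40. Spry4 lost its call without RUNX1-ETO_FIRST replicate 3 or EMPTY replicate 1, with adjusted p values of 0.0714 and 0.0554 by edgeR. Fosl1 lost it without RUNX1-ETO_FIRST replicate 1 or 2 or EMPTY replicate 3, with 0.0752, 0.0904 and 0.101. Feedback genes therefore went both ways.

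Of 23 tested cytokine and chemokine genes of 29 listed, 20 rose and 1 fell, with a median log2 fold change of 4.70, or 3.70 with genes at no counts held at their bound. Il6 lay at 0.441, 0.278 and 0.42 CPM in EMPTY and at 75.4, 75.4 and 68 CPM, a log2 fold change of 7.56 ± 0.18 (SE) with an adjusted p of 3.09e-14 by edgeR. Csf1, the growth factor of macrophages, lay at 24.5, 23.6 and 17.1 CPM and at 475, 527 and 527 CPM. Osm, oncostatin M, lay at 5.29, 4.33 and 5.1 CPM and at 121, 133 and 129 CPM. No library of EMPTY came near the RUNX1-ETO_FIRST levels in these 3 genes. Il13, a cytokine of mast cells and type 2 immunity, had 1 count in EMPTY and lay at 24.9, 19 and 25.4 CPM, a ratio of 1218 (218 to 48144). Il4, a cytokine of the same type of immunity, rose from at most 0.11 CPM to 1.82 to 2.99 CPM. Ccl2 and Ccl7, which attract monocytes, had a ratio of 1667 (299 to 65888) and a rise of at least 66.6-fold. Ccl3 and Ccl4 rose from 3.75 to 7.68 CPM to 163 to 201 CPM and from at most 0.441 CPM to 40.3 to 51 CPM. Tnf fell from 2.5 to 4.32 CPM to 1.97 to 2.41 CPM, and with the 2 groups fitted alone no member fell. Vegfa, the abundant member that did not pass, had an adjusted p of 0.337.

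**Figure D3:**
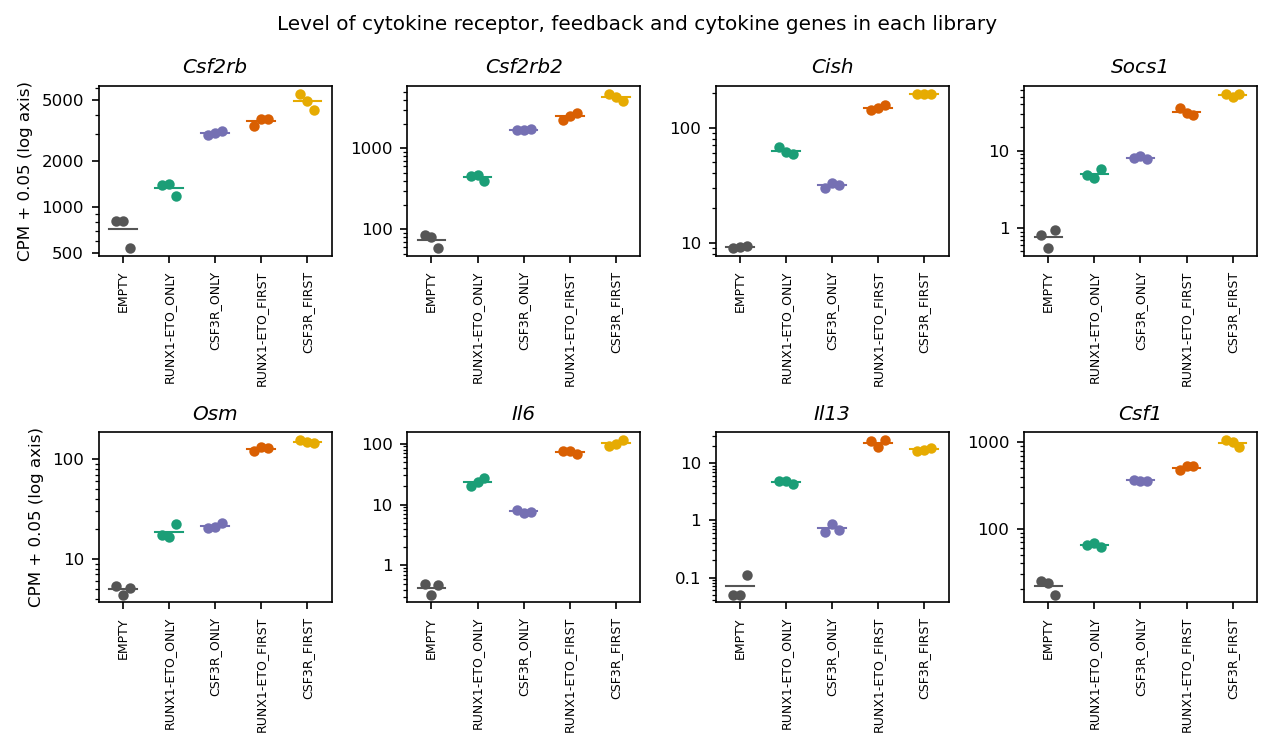
CPM of cytokine, cytokine receptor and feedback genes in each library of the 5 groups on a log axis with an offset of 0.05 CPM, 1 point per library. The RUNX1-ETO_FIRST points lie above the EMPTY points in each of the 8 genes, such as Il6 at 68 to 75.4 CPM against at most 0.441 CPM. Lines mark group means.

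Most interferon response genes rose, many of them at low levels. Of 23 tested members of 27 listed 16 rose and 2 fell, with a median log2 fold change of 0.86. Gbp2, a guanylate-binding protein, rose from 0.3 to 0.389 CPM to 7.32 to 10.1 CPM, and Irf7, the factor that amplifies type I interferon, from 0.992 to 1.44 CPM to 5.92 to 8.36 CPM. Iigp1, a GTPase induced by interferon, had no counts in EMPTY, RUNX1-ETO_ONLY, CSF3R_ONLY or CSF3R_FIRST and lay at 1.63, 1.82 and 1.18 CPM in RUNX1-ETO_FIRST, at least 9.04-fold above the floor. Ifih1 and Ifit2, a sensor of viral RNA and an interferon-induced protein, fell by 1.68 and 2.01 on the log2 scale. Of 16 tested NF-kB subunits and feedback inhibitors of 18 listed, 11 rose and 1 fell. Relb, a subunit of the alternative pathway, rose from 1.49 to 2.22 CPM to 5.95 to 6.82 CPM, and Nfkbia, the classic inhibitor, fell by 0.45. No member fell with the 2 groups fitted alone or without RUNX1-ETO_FIRST replicate 2, where Nfkbia had adjusted p values of 0.0567 and 0.0672 by edgeR.

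Complement receptors and regulators also rose, in 8 of 10 tested genes of 14 listed. Cd55, which protects cells from complement, lay at 0.165, 0.0556 and 0 CPM in EMPTY and at 194, 182 and 222 CPM, a log2 fold change of 11.23. C3ar1, the receptor for the fragment C3a that activates mast cells, had a log2 fold change of 7.37. Cfp, properdin, made by granulocytes, fell from 33.3 to 52.2 CPM to 22.1 to 29.4 CPM. F2r, the thrombin receptor, was among the largest rises outside the lists, from 0.333 to 0.78 CPM to 340 to 390 CPM. Tarm1, an activating receptor of myeloid cells, had a log2 fold change of 8.34. Furin, a protease that trims precursors of receptors and cytokines, lay at 110, 111 and 84 CPM in EMPTY and at 1671, 1686 and 1758 CPM.

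Several stem and progenitor genes rose. Ly6a, the stem cell antigen Sca-1, lay at 0.496, 0.167 and 0.54 CPM in EMPTY and at 402, 312 and 271 CPM in RUNX1-ETO_FIRST. Its log2 fold change was 9.66 ± 0.25 (SE), with an adjusted p of 4.63e-14 by edgeR. Cd34, a surface protein of progenitors and of mouse mast cells, lay at 248, 239 and 220 CPM and at 861, 801 and 810 CPM. Of 20 tested members of 22 listed, 13 rose and 4 fell. Procr, Meis1, Hmga2 and Sox4 rose by 3.90, 1.62, 1.40 and 1.25 on the log2 scale. Myb, a factor of proliferating progenitors, lay at 1015, 1099 and 801 CPM and at 525, 593 and 594 CPM. The members therefore did not move as one, since Kit, Myb and Lmo2 fell while Ly6a, Cd34 and Procr rose.

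HOX genes were near 0 or did not pass the test in most cases. Hoxb8, whose name is close to that of the cell line, lay at 324, 374 and 180 CPM in EMPTY and at 234, 294 and 255 CPM, overlapping, with an adjusted p of 0.549. Without EMPTY replicate 3, Hoxb8 passed as lower with an adjusted p of 0.0229 by edgeR. Hoxa7 lay at 1.1, 1.06 and 1.2 CPM in EMPTY and had no counts in RUNX1-ETO_FIRST, and Hoxa9 fell in the same way from at most 0.959 CPM. Of 9 tested genes for HOX factors and their MEIS and PBX partners of 17 listed, 2 rose and 3 fell, and 1 rose with the 2 groups fitted alone.

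Of genes described in the literature as raised by RUNX1-ETO, 7 of 9 tested rose and 2 fell, of 10 listed, and 5 rose without RUNX1-ETO_FIRST replicate 1. They included Jup, plakoglobin, from 9.2 to 9.89 CPM to 60.6 to 71.6 CPM, Lat2 with a log2 fold change of 1.58 and Cd34. Ccnd2, listed as raised, fell from 147 to 174 CPM to 53.6 to 62.9 CPM. Of genes described as lowered, 4 of 9 tested fell, which were Elane, Mpo, Spi1 and Cebpa, and 5 did not pass the test. Both lists share members with the lists above. Erythroid and platelet genes rose in 8 of 16 tested of 19 listed and fell in 2. Epor, the erythropoietin receptor, rose from 0.551 to 1.08 CPM to 5.01 to 6.39 CPM, while Tfrc, the transferrin receptor, fell from 248 to 328 CPM to 152 to 165 CPM. Of 6 tested lymphoid genes of 19 listed, Il7r and Dntt rose and Cd79b fell. There were 3 falls without RUNX1-ETO_FIRST replicate 1, and 2 without RUNX1-ETO_FIRST replicate 2, RUNX1-ETO_FIRST replicate 3 or EMPTY replicate 1.

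Genes of DNA replication fell by small amounts. Of 22, all tested, 18 fell and 1, Tyms, rose, with a median log2 fold change of -0.34. Cdc45, a helicase component, lay at 102, 96.7 and 127 CPM in EMPTY and at 65.2, 58 and 60.3 CPM, and Mcm5, of the same helicase, lay at 363, 367 and 363 CPM and at 286, 262 and 264 CPM. With the 2 groups fitted alone 10 of the 22 fell. Of 20 mitosis genes, all tested, 8 fell and 12 did not pass the test, and with the 2 groups fitted alone 5 fell. Mki67, a marker of cycling cells, lay at 628, 728 and 261 CPM and at 302, 605 and 516 CPM, with an adjusted p of 0.673. Its low values were those of EMPTY replicate 3 and RUNX1-ETO_FIRST replicate 1, the libraries low in long transcripts. Of 21 ribosome biogenesis and MYC target genes, 7 fell and 1 rose, but with the 2 groups fitted alone 1 fell and without EMPTY replicate 3 there were 13. The 1 rise was lost with the 2 groups alone and without RUNX1-ETO_FIRST replicate 1, EMPTY replicate 1 or EMPTY replicate 2. The counts for this list rest on the fit and on single libraries.

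Genes that control entry into the cell cycle moved both ways. Cdkn1a, the inhibitor p21, lay at 162, 158 and 206 CPM in EMPTY and at 535, 446 and 506 CPM, a 2.83-fold rise with an adjusted p of 5.02e-09 by edgeR. Cdkn2a and Cdkn2b rose from at most 0.5 CPM to 3.38 to 4.46 CPM and from at most 0.111 CPM to 1.01 to 1.68 CPM. The D cyclins Ccnd1 and Ccnd2 fell, the first from 5.7 to 8.5 CPM to 0.385 to 0.561 CPM. Of 17 tested genes for G1 regulators of 18 listed, 6 rose and 5 fell. With the 2 groups fitted alone 2 fell, and without RUNX1-ETO_FIRST replicate 1 there were 3. The 6 that rose were Cdkn1a, Cdkn1b, Cdkn2a, Cdkn2b, Cdkn2c and Cdkn2d, which encode inhibitors of cyclin-dependent kinases. Cdkn1b lost its call without RUNX1-ETO_FIRST replicate 2 or EMPTY replicate 3, with adjusted p values of 0.0517 and 0.0631 by edgeR. Of 15 tested p53 targets of 18 listed, 8 rose, among them Zmat3 from 2.33 to 2.48 CPM to 9.09 to 9.47 CPM, and 7 did not pass, among them Bax with an adjusted p of 0.405. Without EMPTY replicate 3, Bax passed as higher with an adjusted p of 0.0324 by edgeR, and 1 p53 target fell. In the BCL2 family, 6 of 13 tested genes of 19 listed rose and 1 fell. Bcl2l1, which encodes the survival protein BCL-XL, rose from 44.3 to 45.8 CPM to 93 to 113 CPM, Bmf, a promoter of cell death, rose from 1.8 to 2.42 CPM to 6.79 to 8.2 CPM, and Bcl2 fell by 0.64. The family thus held risen members of both kinds. Without the 4 libraries low in long transcripts 2 of them fell.

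Cholesterol and fatty acid synthesis genes rose together. Of 23, all tested, 21 rose and 2, Acaca and Acly, did not pass the test, with a median log2 fold change of 0.63. Hmgcs1, an early enzyme of cholesterol synthesis, averaged 85.02 ± 8.42 CPM (SD, n = 3) in EMPTY and 208.1 ± 8.18 CPM in RUNX1-ETO_FIRST, a log2 fold change of 1.29 ± 0.08 (SE). Scd1, a fatty acid desaturase, averaged 59.3 ± 12.6 and 264.2 ± 13.9 CPM, a log2 fold change of 2.15. Lysosome genes rose in 18 of 22 tested of 23 listed. Ctsd, cathepsin D, lay at 428, 414 and 514 CPM and at 1492, 1270 and 1304 CPM, Glb1, beta-galactosidase, rose from 107 to 111 CPM to 373 to 402 CPM, and Neu1, a sialidase, fell by 0.46.

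Other metabolic lists moved less or both ways. Over all tested genes 23.7% rose and 20.2% fell, shares that the stress response rises and the oxidative phosphorylation falls below did not exceed. Of 24 glycolysis and hypoxia genes 10 rose and 5 fell, with 7 and 2 when the groups compared were fitted alone, and 2 falls without RUNX1-ETO_FIRST replicate 2. Of 20 oxidative phosphorylation genes 3 fell and 17 did not pass. None fell with the 2 groups fitted alone, and 6 fell without EMPTY replicate 2 and once the 4 libraries low in long transcripts were left out. The 20 also held 1 rise without EMPTY replicate 3. Of 18 stress response genes of the endoplasmic reticulum and amino acid supply 4 rose and 6 fell. The rises were 1 with the 2 groups fitted alone, 2 without RUNX1-ETO_FIRST replicate 3 and 8 with limma. Asns, asparagine synthetase, fell from 171 to 213 CPM to 87.8 to 103 CPM. Arg1, arginase, had no counts in EMPTY and lay at 8.75, 8.31 and 7.84 CPM, at least 48.6-fold above the floor. Sphk1, which makes sphingosine-1-phosphate, likewise had none and lay at 9.76, 7.7 and 8.18 CPM. Cyp11a1, the enzyme that opens steroid synthesis, had a log2 fold change of 5.78, from 5.18 to 8.94 CPM to 362 to 398 CPM.

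Some genes of the cell surface, matrix and junctions changed by large factors. Tjp1, the tight junction scaffold ZO-1, had no counts in EMPTY and lay at 73.5, 104 and 103 CPM, at least 549.8-fold above the floor. Of 14 tested junction and cytoskeletal genes of 23 listed 13 rose, among them Cobl and Etl4, which also had no counts in EMPTY, and Dsp, desmoplakin, fell from 0.6 to 1.67 CPM to no counts. Of 21 tested matrix genes of 27 listed, 13 rose and 5 fell. The falls were 2 with the 2 groups fitted alone, and 3 without RUNX1-ETO_FIRST replicate 1 or replicate 3. Ecm1 rose from 16 to 21.1 CPM to 546 to 613 CPM, and Lama5, a laminin chain, from 3.24 to 9 CPM to 119 to 197 CPM. Of 20 tested integrins and adhesion molecules of 21 listed, 13 rose and 4 fell, with a median log2 fold change of 0.50. The rises included Itga2, an integrin chain that mast cells and platelets use to bind collagen, which had no counts in EMPTY and lay at 3.25, 6.27 and 3.89 CPM. Itgam, the neutrophil and macrophage integrin, fell. Of 14 tested plexins, neuropilins and semaphorins of 18 listed, 9 rose and 2 fell. There was 1 fall with the 2 groups fitted alone and without any single library other than EMPTY replicate 3. Plxdc2 lay at 1.76, 0.778 and 1.26 CPM in EMPTY and at 68.8, 68.1 and 69 CPM, and Plxnc1 fell from 15.5 to 26.3 CPM to 1.51 to 2.26 CPM. Of 15 tested proteoglycan and heparin sulfation genes of 16 listed, 9 rose and 3 fell, with a median log2 fold change of 0.68.

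**Figure D4:**
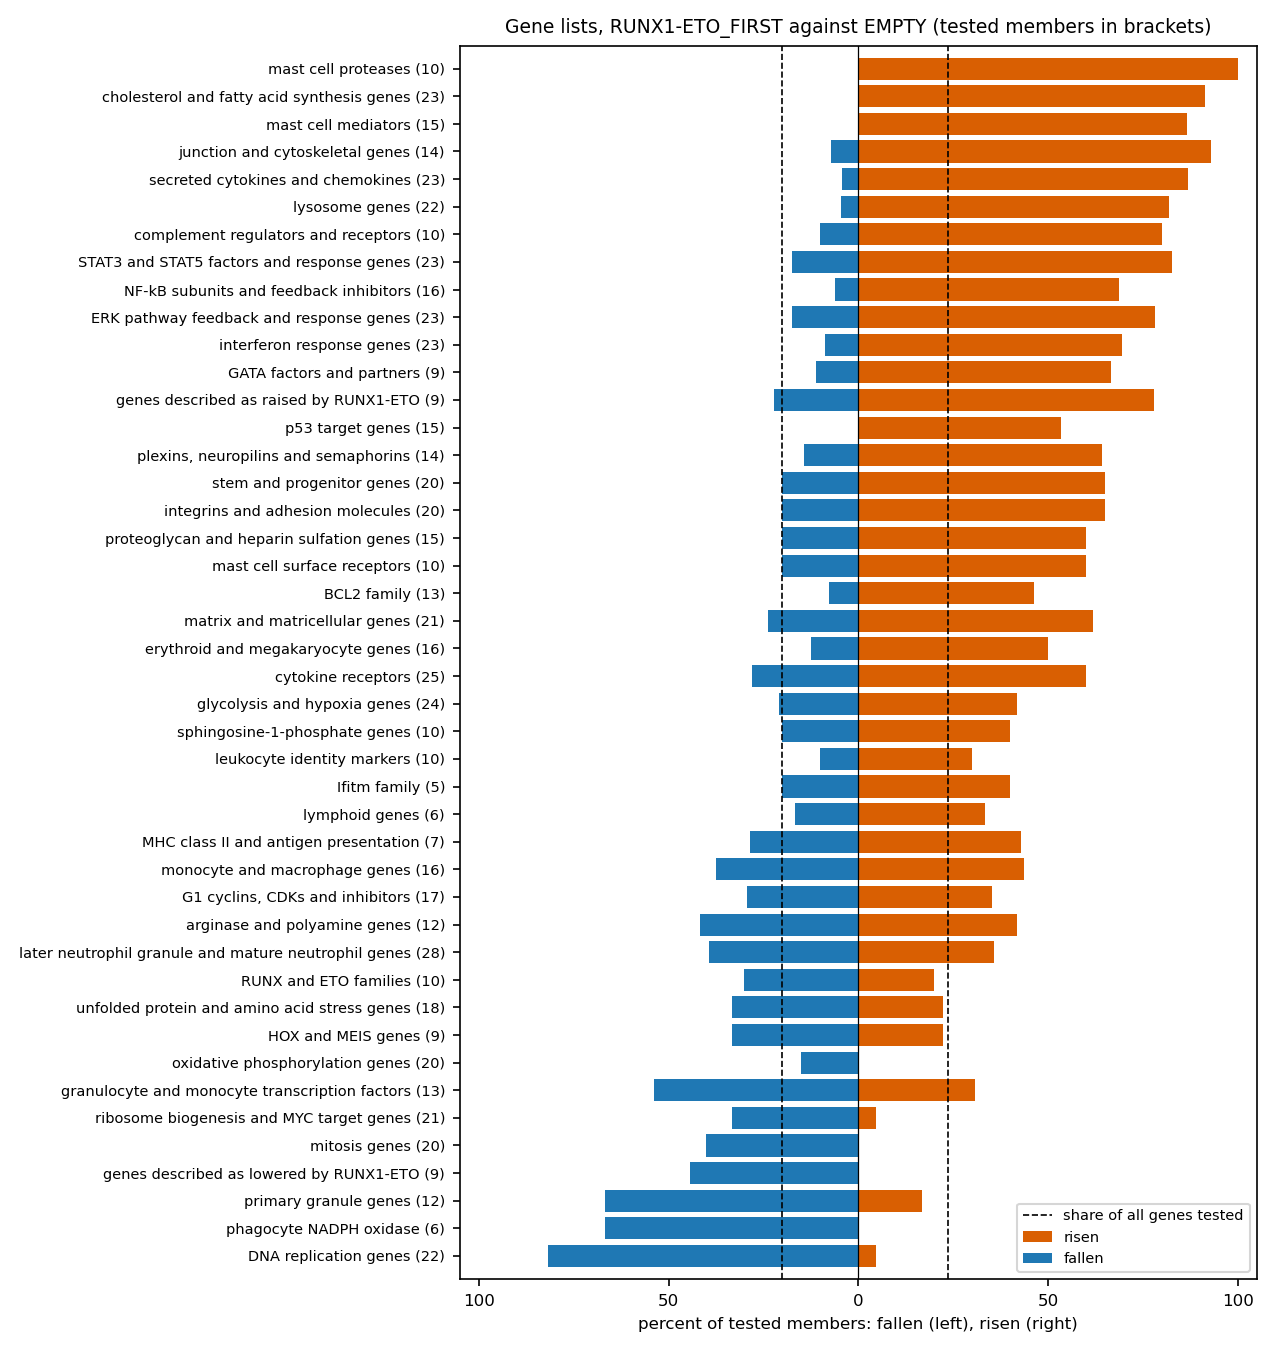
Percent of the tested members of a gene list that rose (bars to the right) or fell (bars to the left), RUNX1-ETO_FIRST against EMPTY. Each list with 5 or more tested members has 1 row, with the number tested in brackets. Dashed lines mark the shares over all tested genes, 23.7% risen and 20.2% fallen, and the bars reach from mast cell proteases, all 10 risen, to DNA replication genes, 18 of 22 fallen.

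The double cells were also set against the other 3 groups, which share the RUNX1-ETO_FIRST libraries, so these comparisons are not independent of each other. Against RUNX1-ETO_ONLY 3454 genes (26.3%) differed, 2097 (16%) higher and 1357 (10.3%) lower. Scaled by library size alone, which moved the median log2 fold change of all genes to -0.141, the split was 1668 higher and 2700 lower. Against CSF3R_ONLY 5196 genes (39.6%) differed, 2625 (20%) higher and 2571 (19.6%) lower. Against CSF3R_FIRST 2407 genes (18.3%) differed, 948 (7.22%) higher and 1459 (11.1%) lower, and 1842 higher and 1131 lower by library size alone, with a median of 0.101.

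Of 10 mast cell proteases 9 were higher in RUNX1-ETO_FIRST than in RUNX1-ETO_ONLY, and 9 were lower than in CSF3R_FIRST. Cma1 averaged 282.7 ± 33.2 CPM (SD, n = 3) in RUNX1-ETO_ONLY, 359.2 ± 8.08 in CSF3R_ONLY, 945.7 ± 104 in RUNX1-ETO_FIRST and 3380 ± 337 in CSF3R_FIRST. The log2 differences of RUNX1-ETO_FIRST were 1.74, 1.40 and -1.84, with adjusted p values of 2.96e-07, 1.36e-06 and 6.16e-07 by edgeR. The fusion-first cells thus lay above both single groups and below the receptor-first cells. Hdc and Tpsb2 likewise lay between the single groups and CSF3R_FIRST, Hdc with 1570 ± 42, 837.8 ± 24, 3372 ± 75.7 and 6074 ± 243 CPM in these 4 groups. Cpa3 differed from RUNX1-ETO_ONLY by 0.22 on the log2 scale, with an adjusted p of 0.358, and averaged 9435 ± 487 CPM there. Mcpt1 averaged 0.3104 ± 0.189 CPM in RUNX1-ETO_ONLY, 893.2 ± 36 in CSF3R_ONLY, 327 ± 52.6 in RUNX1-ETO_FIRST and 559.2 ± 62.7 in CSF3R_FIRST. The proteases therefore did not share one pattern over the groups. Gata2 averaged 589.8 ± 37.1, 497.1 ± 22.9 and 1432 ± 111 CPM in RUNX1-ETO_ONLY, CSF3R_ONLY and CSF3R_FIRST, and its difference from CSF3R_FIRST had an adjusted p of 0.0575.

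Elane and Mpo were lower than with the receptor alone, while their difference from the fusion alone did not pass the test or was small. Ltf, lactoferrin, and Cybb were lower than in RUNX1-ETO_ONLY too, with log2 differences of -1.44 and -1.17. Elane averaged 199.8 ± 30.8 CPM in RUNX1-ETO_ONLY, 1445 ± 54.1 in CSF3R_ONLY, 209.6 ± 26.3 in RUNX1-ETO_FIRST and 303.2 ± 36.9 in CSF3R_FIRST. Its log2 differences were 0.07, -2.79 and -0.53, with adjusted p values of 0.837, 1.94e-08 and 0.0661 by edgeR. Mpo averaged 18235 ± 539 CPM in RUNX1-ETO_ONLY and 25625 ± 202 in CSF3R_ONLY, both above RUNX1-ETO_FIRST with adjusted p values of 0.00312 and 7.62e-07. Of 28 later neutrophil genes, 24 were lower than in CSF3R_ONLY and 2 higher, while 13 were higher and 7 lower than in RUNX1-ETO_ONLY and 21 were lower than in CSF3R_FIRST. Ngp averaged 1707 ± 28.3 CPM in CSF3R_ONLY against 42.89 ± 7.7 in RUNX1-ETO_FIRST.

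Signalling and growth genes did not all share one order over the groups. Of 23 cytokine genes, 20 were higher than in RUNX1-ETO_ONLY and 1 lower, and 1 was higher and 10 lower than in CSF3R_FIRST. Cish averaged 62.45 ± 4.43 CPM in RUNX1-ETO_ONLY, 31.49 ± 1.4 in CSF3R_ONLY and 195.9 ± 1.99 in CSF3R_FIRST, against 148.3 ± 7.42 in RUNX1-ETO_FIRST. All 3 differences passed the test. DNA replication genes were lower than in RUNX1-ETO_ONLY in 15 of 22 and higher than in CSF3R_FIRST in 13. Of 20 mitosis genes 17 were higher than in CSF3R_FIRST and 18 were lower than in CSF3R_ONLY. Lysosome genes were higher than in RUNX1-ETO_ONLY in 20 of 22 and lower than in CSF3R_FIRST in 19. Cholesterol synthesis genes were higher than in RUNX1-ETO_ONLY in 21 of 23, and 1 was higher and 2 lower than in CSF3R_FIRST. Without the 4 libraries low in long transcripts, 3 of the 23 were higher and 9 lower than in CSF3R_FIRST. Ccnd2 averaged 59.57 ± 5.16 CPM in RUNX1-ETO_FIRST and 15.1 ± 1.24 CPM in CSF3R_FIRST, with an adjusted p of 1.31e-08. Against CSF3R_FIRST, the fusion-first cells were thus higher in most mitosis genes and lower in most mast cell protease and lysosome genes, also when scaled by library size alone and with the 4 libraries that were low in long transcripts left out. Without RUNX1-ETO_FIRST replicate 1, 9 of 22 DNA replication genes were higher. Plxdc2 was the largest rise against CSF3R_FIRST by the naming rule, at 12.4 CPM there, and Saa3, serum amyloid A3, the largest fall, at 30.6 CPM there against 3.58 to 4.94 CPM.

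Some genes were past the threshold in the same direction against each of the 4 other groups. They were 47 higher (0.358%) and 28 lower (0.213%), of which 27 and 5 differed at least 2-fold from each. Fam20a, a protein of the secretory pathway that assists a kinase, lay at 58.2, 53.8 and 58.5 CPM in RUNX1-ETO_FIRST and averaged 26.4 ± 1.92 CPM in RUNX1-ETO_ONLY, 23.4 ± 1.28 in CSF3R_FIRST and 0.70 ± 0.08 in EMPTY. Akr1c12, an aldo-keto reductase, lay at 35.8, 32.8 and 32 CPM and averaged at most 0.661 CPM in any other group. Akr1c13 and Akr1c18, its neighbours in the family, were also higher than in each other group, and 3 of the 8 listed Akr1c genes were tested. The relatives are close in sequence, so reads may be shared. Ccn3, a secreted matricellular protein, lay at 21.4, 20.2 and 19.1 CPM and had no counts in the 12 other libraries, at least 119-fold above the floor of EMPTY. Thy1 and Gbp2 belong to the same group of genes. Ltf, lactoferrin of secondary granules, and Cybb were among the 5 that were lower, with 2.37 to 4.15 and 1.18 to 1.79 CPM in RUNX1-ETO_FIRST. These genes were selected on the values given here, which are a description.

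**Figure D5:**
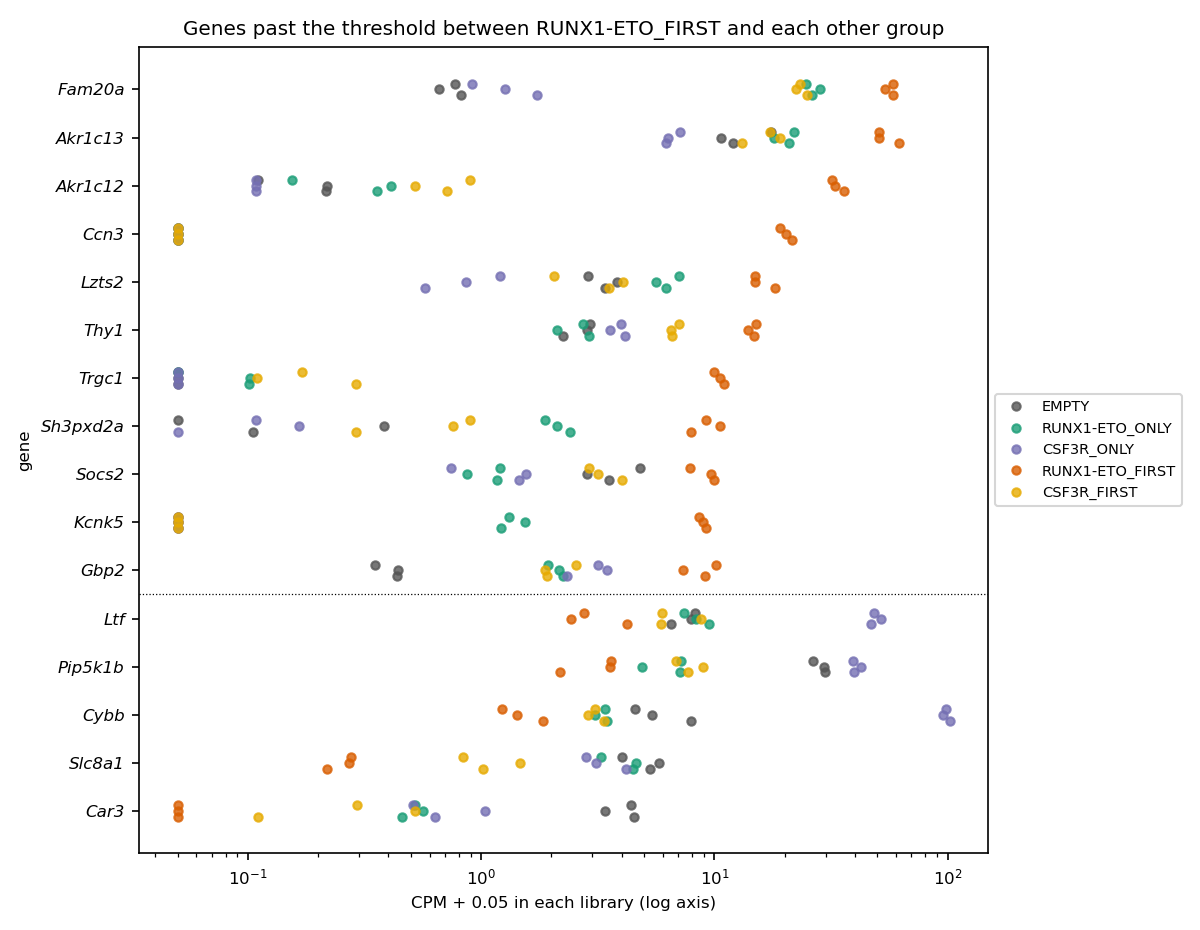
CPM in each library of the 5 groups for genes of high level among those past the threshold and at least 2-fold apart from each other group, on a log axis with an offset of 0.05 CPM, 1 point per library. Ccn3 shows points at 0 in the 12 other libraries and 19.1 to 21.4 CPM in RUNX1-ETO_FIRST.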

How the data were processed

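All values come from raw counts of reads per gene symbol for the 15 libraries, in a table that the authors deposited. Per the labels' protocols, total RNA was column-purified and treated with DNase, and strand-specific libraries of mRNA were read on a BGI DNBSEQ instrument. Per the submitters' processing notes, Trimmomatic, STAR, DESeq2 and the build mm10 were used, without versions or roles. Not given in the sources used here are the counting program, the annotation, the strand setting and the handling of shared reads.

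Of its 52328 entries, 1 names no gene and was dropped, which took away 0.0179% to 0.0305% of each library. In edgeR 4.0.16, filtering on expression by group at default settings left 13123 genes, and scaling factors were TMM. CPM use these factors, and log2 CPM a prior count of 2. All 15 libraries entered 1 robust quasi-likelihood fit (R 4.3.3) of 5 group means, which leaves 10 residual degrees of freedom. Two-sided p-values had a Benjamini-Hochberg adjustment over every tested gene, and 0.05 was the threshold. Changes count as 2-fold or 4-fold by the fitted value. Groups at no counts were set against a floor of 3 counts per library, and groups with 1 to 3 counts were compared by the ratio of counts per total with an exact 95% interval. On simulated counts of 12812 genes for this comparison, the test found 59.7% of 67 genes given a 1.5-fold change. It found 97% of 67 genes at 2-fold and 100% of 66 genes at 4-fold. False calls were 7 of 178. How the test performs where 44% of genes pass, as in the real counts, was not tested.

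Named genes were chosen by a rule. It took the allele genes (Runx1t1, Runx1 and Csf3r), the 12 largest rises and falls without overlap of the groups and averaging log2 CPM 3 or more, leaving out unnamed gene models, and the 8 largest rises and falls in mean CPM. From each of 48 lists, 4 members with the largest change and 2 abundant members not past the threshold were eligible, and from each of the other comparisons the 5 largest rises and falls. Other list members are named for their role, and were chosen after their values were seen. The groups and the lists (747 genes) were chosen with earlier results of these data known, and some lists share members. Some named genes are not reported here. Alternatives were RLE factors, library sizes alone, DESeq2 1.42.0, limma 3.58.1 with voom and sample weights, other filters, the groups compared alone, a replicate block, each replicate left out, and the 4 libraries low in long transcripts left out. Positions are from GENCODE M21 on mm10. Promoters are from RefSeq, with 9785 of the tested genes matched.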

Additional observations from a re-analysis of the deposited data

How the results depend on the processing

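Of 187 genes named in the text, 171 were past the threshold in RUNX1-ETO_FIRST against EMPTY, and none of these changed sign under any alternative run. Of the 171, 165 stayed past it under every alternative that tested them. Those that lost it were Cdkn1b, Fosl1, Myc, Nfkbia, Spry4 and Tnf. Of the 16 not past it, 7 changed sign under some alternative (Acaca, Csf3r, Gata3, Hoxb8, Mki67, Pla2g4a and S100a9) and 8 passed it under some alternative (Bax, Ctsg, Fcer1g, Hoxb8, Hpgds, Ifitm1, Lcn2 and Vegfa). Of 96 counts of list members risen or fallen, 37 moved by over 1.5 times under the stricter filter, 31 under another alternative and 15 without a single library. With limma-voom, 16 glycolysis and hypoxia genes rose. A stricter filter, keeping genes that average log2 CPM 3 or more over the EMPTY and RUNX1-ETO_FIRST libraries in every comparison and so testing fewer, gave 1870 risen genes against EMPTY, and 2271, 3369 and 1591 differing genes against RUNX1-ETO_ONLY, CSF3R_ONLY and CSF3R_FIRST. With the groups compared fitted alone, which leaves fewer samples for the spread, 1741 genes fell against EMPTY. Against CSF3R_FIRST, limma-voom gave 4269 genes and leaving out the 4 libraries low in long transcripts gave 4449, and the cause was not tested. Leaving out 1 replicate at a time gave 2731 to 3194 risen and 2199 to 2940 fallen genes against EMPTY. It gave 2757 to 3055, 4465 to 4689 and 1718 to 2139 differing genes against RUNX1-ETO_ONLY, CSF3R_ONLY and CSF3R_FIRST. Against EMPTY, DESeq2 gave 3283 risen and 2595 fallen genes, and limma-voom 3792 and 3405.

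Replicate numbers did not pair RUNX1-ETO_FIRST with EMPTY, with correlations of the deviations of same-numbered libraries of -0.243, 0.239 and -0.164. Nor did they with RUNX1-ETO_ONLY (-0.0975, 0.176 and -0.121), CSF3R_ONLY (-0.00291, 0.00489 and -0.0251) or CSF3R_FIRST (-0.161, 0.0824 and -0.132). Same-numbered EMPTY libraries did deviate together with those of RUNX1-ETO_ONLY (0.284, 0.283 and 0.455) and CSF3R_FIRST (0.165, 0.136 and 0.37), pairs that no comparison here sets against each other. A replicate block in the fit gave 3196 risen and 2730 fallen genes. Leaving out EMPTY replicate 3 moved the log2 fold changes of genes near 0 in EMPTY, to 15.09 for Mcpt4, 11.80 for Tph1, 11.68 for Il13, 12.13 for Ccl2 and 8.75 for Slc6a4. For Cd55 leaving out EMPTY replicate 1 gave 12.44, and for Il2ra leaving out EMPTY replicate 2 gave 8.81. At this depth such folds are set by a few control counts.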

Other observations

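Ifitm1 and Ifitm3, which encode membrane proteins that restrict viruses, lay in RUNX1-ETO_FIRST between the 2 single groups. Ifitm1 averaged 338.1 ± 131 CPM in EMPTY, 13.61 ± 2.67 in RUNX1-ETO_ONLY, 3459 ± 97.4 in CSF3R_ONLY and 253.7 ± 25.7 in RUNX1-ETO_FIRST (SD, n = 3). Its difference from EMPTY had an adjusted p of 0.109 by edgeR, and of 0.0362 and 0.0373 without EMPTY replicate 1 or 2, while its differences from the single groups had 2.48e-09 and 1.55e-09. Ifitm3 lay at 39.4, 41.3 and 80.1 CPM in EMPTY and at 24.8, 21.8 and 22.6 CPM in RUNX1-ETO_FIRST, and averaged 370 CPM in CSF3R_ONLY. Nos2, the inducible nitric oxide synthase, lay at 11.1 to 13.1 CPM in RUNX1-ETO_FIRST, and averaged 206 CPM in CSF3R_ONLY and 0.673 CPM in RUNX1-ETO_ONLY. Against EMPTY, Nos2 rose in RUNX1-ETO_FIRST by 2.26 on the log2 scale, with an adjusted p of 4.13e-08 by edgeR.

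Antigen presentation genes were low in both groups. Cd74, the invariant chain, rose from at most 0.12 CPM to 3.25 to 4.43 CPM, and Cd80, a costimulatory ligand, fell from 1.65 to 2.04 CPM to at most 0.11 CPM. Of 7 tested members of 12 listed 3 rose and 2 fell, and with the 2 groups fitted alone 1 fell. Of 12 arginase and polyamine genes 5 rose and 5 fell, with 3 rises when the 2 groups were fitted alone, and of 10 tested sphingosine-1-phosphate genes of 11 listed 4 rose and 2 fell.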
